A study of Homo sapiens and Mus musculus with 54 samples.

Results

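The genes described here encode mitochondrial flavoenzymes, proteins of the mitochondrion that carry FAD or FMN, the coenzymes made from vitamin B2. They are 34 of the 19974 protein-coding genes that RefSeq places on chromosomes 1 to 22 and X of GRCh38. Each was represented by the peaks that overlapped its RefSeq gene body or lay within 50 kb of either end. Binding of the aryl hydrocarbon receptor (AhR), binding of the liver factor C/EBPα and the histone mark H3K27ac had been profiled by ChIP-seq in HepG2, a human liver cancer cell line. All HepG2 libraries are labelled day 12, and the labels contrast control cells with cells deficient in vitamin B2. AhR was profiled in 2 control and 2 B2-deficient libraries, C/EBPα in 2 and 2, and H3K27ac in 5 and 5. In a second H3K27ac experiment DMSO was given to 2 control and to 2 B2-deficient samples, and an AhR inhibitor that the labels do not name to a further 2 B2-deficient samples. The remaining 6 HepG2 libraries are inputs, and 2 of these served AhR as well as C/EBPα in B2-deficient cells, by their titles. The 4 HepG2 lists hold positions with no value for a library. The data therefore show where peaks lay at these genes, and hold no measure of a difference between B2-deficient and control cells. The sources used here do not give the libraries behind each list, and all results come from 1 cell line.

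A flavoenzyme holds FAD or FMN in its active site and takes up electrons from a substrate, which it passes to another carrier. In liver mitochondria the acyl-CoA dehydrogenases of fatty acid and amino acid breakdown hand electrons to the electron transfer flavoprotein. Some other flavoenzymes pass electrons to ubiquinone or oxygen. AhR is a ligand-activated transcription factor whose known DNA core is GCGTG, and C/EBPα is a factor of hepatocyte gene expression that binds sites containing TTGCNNAA, where N is any base. H3K27ac marks active enhancers and promoters.

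The AhR list held 56739 peaks, the C/EBPα list 62761, and the H3K27ac lists 106666 and 97145 regions. The first H3K27ac list is named for the experiment without inhibitor and is called the untreated list, and the second is named for the inhibitor experiment and is called the inhibitor list. The HepG2 label was checked with marker genes of hepatocytes and of other liver cell types. The 6 hepatocyte markers had a median of 40 untreated H3K27ac regions within 50 kb, from 10 at APOA1 to 61 at ALB, and the 4 leukocyte markers a median of 4, from 1 to 7. The 3 stellate or fibroblast markers had 17 at COL1A1, 4 at COL3A1 and 0 at DCN. The 3 endothelial markers had between 17 and 41. The ranges of the hepatocyte and endothelial markers overlapped, COL1A1 lay within the hepatocyte range, and markers of other cell types were thus not free of the mark. Whether this touches the peaks at the flavoenzyme genes was not tested.

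All 34 genes had AhR peaks nearby, where 85.4% of all protein-coding genes had one. They held 209 distinct AhR peaks, and the number per gene ran from 1 at IVD and SDHA to 17 at DHODH. The median was 6 AhR peaks per flavoenzyme gene and 4 over all genes, and 20 of the 34 (58.8%) had at least 5, against 41.9% of all genes. C/EBPα peaks were present at 34 of 34, against 88.6% of all genes, with medians of 5 and 4. Untreated H3K27ac regions were present at 34 of 34, against 90.4%, with medians of 10.5 and 7. Inhibitor-list H3K27ac regions were also present at 34 of 34, against 88.1%, with medians of 9.5 and 6. The flavoenzyme genes were longer than the typical gene, with a median of 34.1 kb against 24.2 kb. Among the 14925 genes within their range of length, 5.6 to 186.1 kb, 87.7% had an AhR peak and the median was 4. That range takes in most genes and is not a match for length. The 17 shorter flavoenzyme genes had a median of 4 AhR peaks and the 17 longer ones 7. For untreated H3K27ac regions the order was the reverse, with 12 and 9, and the C/EBPα median was 5 in both. An effect of length was not tested. With shares this high over all genes, the presence of a peak says little about these 34 in particular.

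**Figure D1:**
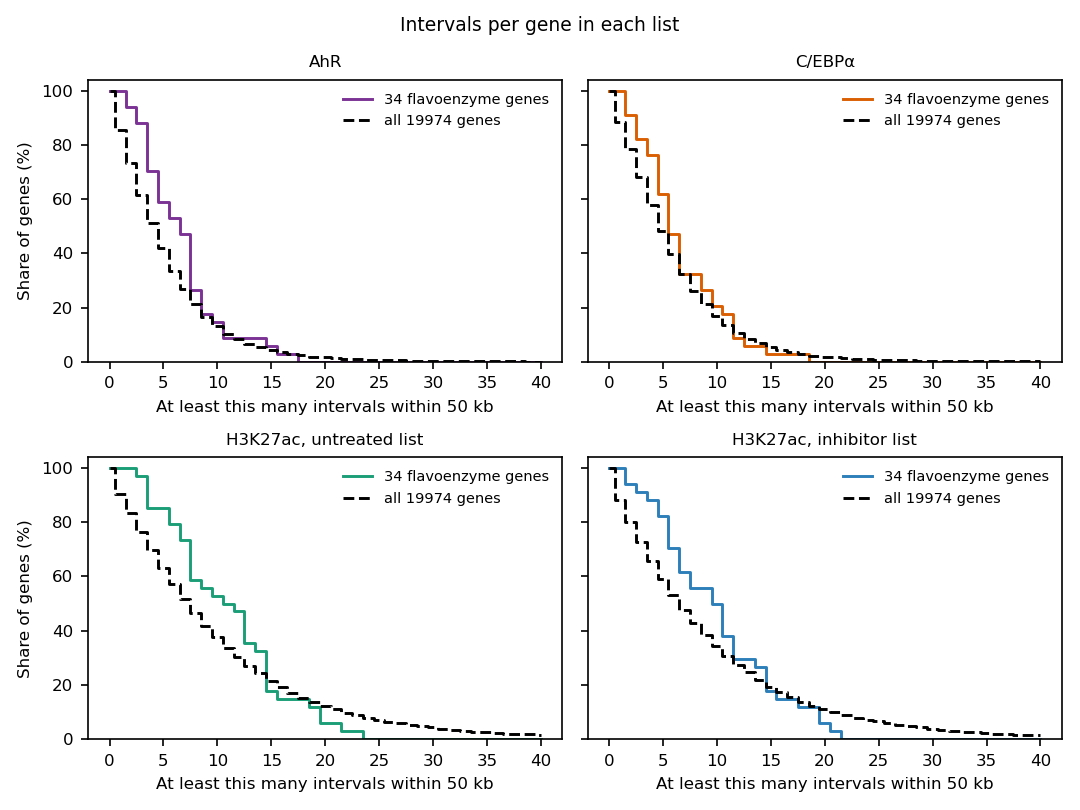
Share of genes (vertical axis, %) with at least the given number of intervals within 50 kb (horizontal axis), for each of the 4 HepG2 lists. Coloured lines are the 34 flavoenzyme genes and dashed black lines all 19974 protein-coding genes. For AhR, 52.9% of the flavoenzyme genes had at least 6 peaks, and no flavoenzyme gene exceeded 17.

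An AhR peak that shared at least 1 bp with a C/EBPα peak and also with an untreated H3K27ac region is called a three-way site. Such sites were found at 27 of the 34 genes, against 62.2% of all genes, with a median of 1 in both sets. The 7 genes without one were ACADL, ETFDH, SDHA, PRODH2, AIFM1, MAOB and FOXRED1. An AhR entry whose name records a merge of 2 or more peaks was present at 29 of the 34, against 66.3% of all genes. Of the 209 AhR peaks, 62 were three-way sites, 60 overlapped H3K27ac alone, 45 overlapped C/EBPα alone and 42 overlapped neither.

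**Figure D2:**
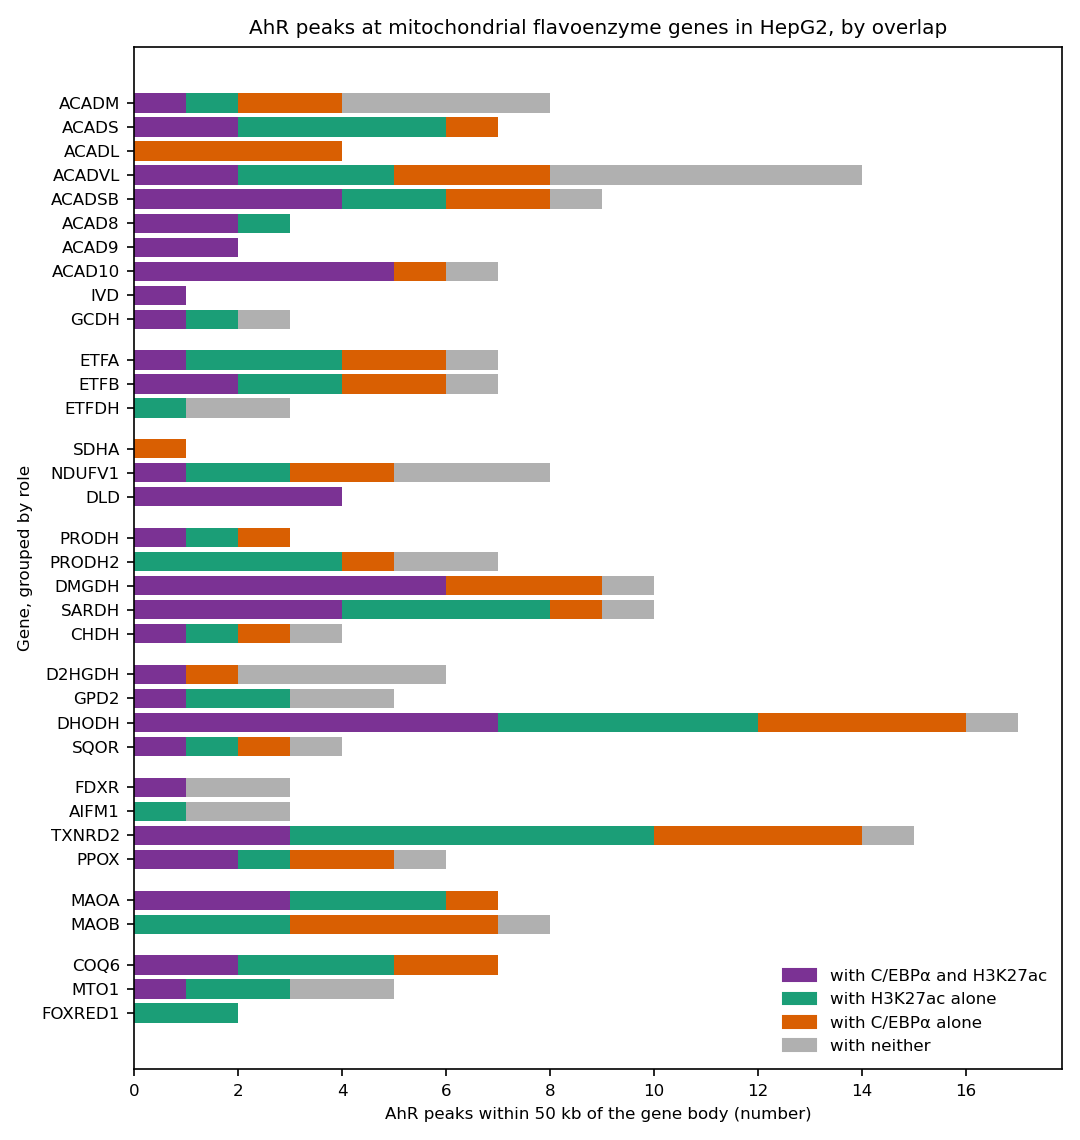
Number of AhR peaks within 50 kb of each flavoenzyme gene (horizontal axis), by overlap with C/EBPα peaks and untreated H3K27ac regions, with genes on the vertical axis grouped by role. Bars run from 1 peak at IVD and SDHA to 17 at DHODH, and all 4 peaks at ACADL overlapped C/EBPα alone while all 4 at DLD were three-way sites.

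The most direct placement was at gene starts, and the stretches before 5 of them are printed because AhR peaks lay on them. RefSeq promoter windows matched 30 of the 34 genes, and those not matched were ETFDH, PRODH, MTO1 and FOXRED1. An AhR peak lay within 1 kb of the gene start at 6 of 30, against 13.5% of the 15812 genes with a start. These were ACADSB, ETFB, PRODH2, SARDH, AIFM1 and MAOB. The table lists more than 1 start for 10 of the 30 genes, and the first was used. With every listed start the count was 7 of 30, against 15.7%, and the gene added was ACADVL. The sequences are from RefSeq (GRCh38.p14), on the strand of the gene, read 5′ to 3′ and ending at the base before the gene start. Capitals mark GCGTG and TTGCNNAA on either strand, so that GCGTG on the other strand reads CACGC and TTGCNNAA reads TTNNGCAA.
ACADSB, chr10:123008796-123009005, plus strand: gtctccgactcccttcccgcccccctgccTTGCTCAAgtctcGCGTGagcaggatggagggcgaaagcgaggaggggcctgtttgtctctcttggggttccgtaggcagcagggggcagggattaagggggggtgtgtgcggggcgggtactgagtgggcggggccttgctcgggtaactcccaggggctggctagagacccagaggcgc
ETFB, chr19:51354843-51355092, minus strand: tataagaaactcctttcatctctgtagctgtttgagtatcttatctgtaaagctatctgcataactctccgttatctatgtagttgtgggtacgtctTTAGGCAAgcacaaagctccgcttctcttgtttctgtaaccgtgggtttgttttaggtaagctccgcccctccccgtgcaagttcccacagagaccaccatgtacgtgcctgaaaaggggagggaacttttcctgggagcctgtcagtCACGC
SARDH, chr9:133739956-133740205, minus strand: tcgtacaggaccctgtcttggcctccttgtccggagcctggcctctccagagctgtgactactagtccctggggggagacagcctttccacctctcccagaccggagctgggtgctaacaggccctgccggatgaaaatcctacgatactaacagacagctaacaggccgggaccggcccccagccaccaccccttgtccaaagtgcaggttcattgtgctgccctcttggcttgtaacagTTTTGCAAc
PRODH2, chr19:35812846-35813095, minus strand: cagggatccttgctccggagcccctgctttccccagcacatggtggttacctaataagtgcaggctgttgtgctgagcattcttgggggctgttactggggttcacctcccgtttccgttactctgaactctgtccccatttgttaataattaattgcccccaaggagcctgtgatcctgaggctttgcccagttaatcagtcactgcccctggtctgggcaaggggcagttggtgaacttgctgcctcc
MAOB, chrX:43882451-43882700, minus strand: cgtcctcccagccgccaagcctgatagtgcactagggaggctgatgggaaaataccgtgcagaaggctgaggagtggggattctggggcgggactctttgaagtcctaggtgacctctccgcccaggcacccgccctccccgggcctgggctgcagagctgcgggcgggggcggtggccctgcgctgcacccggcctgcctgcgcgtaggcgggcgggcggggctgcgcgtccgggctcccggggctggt

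The ACADSB stretch holds TTGCTCAA with its first base at -181 and GCGTG with its first base at -168, counted back from the gene start, and its AhR peak at chr10:123008755-123008957 covers both. That stretch was cut to 210 bases, since the neighbouring gene IKZF5, the nearest gene of this peak, begins there. The ETFB stretch holds TTAGGCAA at -153 and CACGC at -5, and the AhR peak at chr19:51354797-51355099 covers all 250 bases. The ETFB stretch lies inside the RefSeq body of ETFB, because a second start is listed farther upstream. SARDH holds TTTTGCAA at -9, where its AhR peak at chr9:133739873-133740101 crosses the gene start. The PRODH2 and MAOB stretches hold neither set of letters, although AhR peaks at chr19:35812882-35813105 and chrX:43882477-43882699 cover 214 and 223 of their 250 bases. At ACADSB, ETFB, SARDH and PRODH2 the peak on the stretch also overlapped a C/EBPα peak, and at MAOB it overlapped neither C/EBPα nor H3K27ac.

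Over the full windows of 250 bases before and 50 after the start, GCGTG was found in 16 of 30 flavoenzyme genes and in 44.1% of all 15812 windows. TTGCNNAA was found in 5 of 30, against 8.37% of all windows, and the 5 were ACADL, ACADSB, ETFB, DLD and SARDH. The flavoenzyme windows had a median GC content of 66.3%, and all windows 62.7%. A match gives letters only, and the AhR and C/EBPα peaks themselves were not searched, since no genome was used here. C/EBPα peaks lay within 1 kb of the first listed start at 8 of 30 genes, against 20.8% of all genes with a start. They were ACADSB, GCDH, ETFB, PRODH2, SARDH, SQOR, FDXR and MAOB. The centre of the AhR peak nearest to the start was a median of 3659 bp away over the 30 flavoenzyme genes (32 to 81654 bp), and 9744 bp away over the 13644 genes with a start and an AhR peak within 50 kb.

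**Figure D3:**
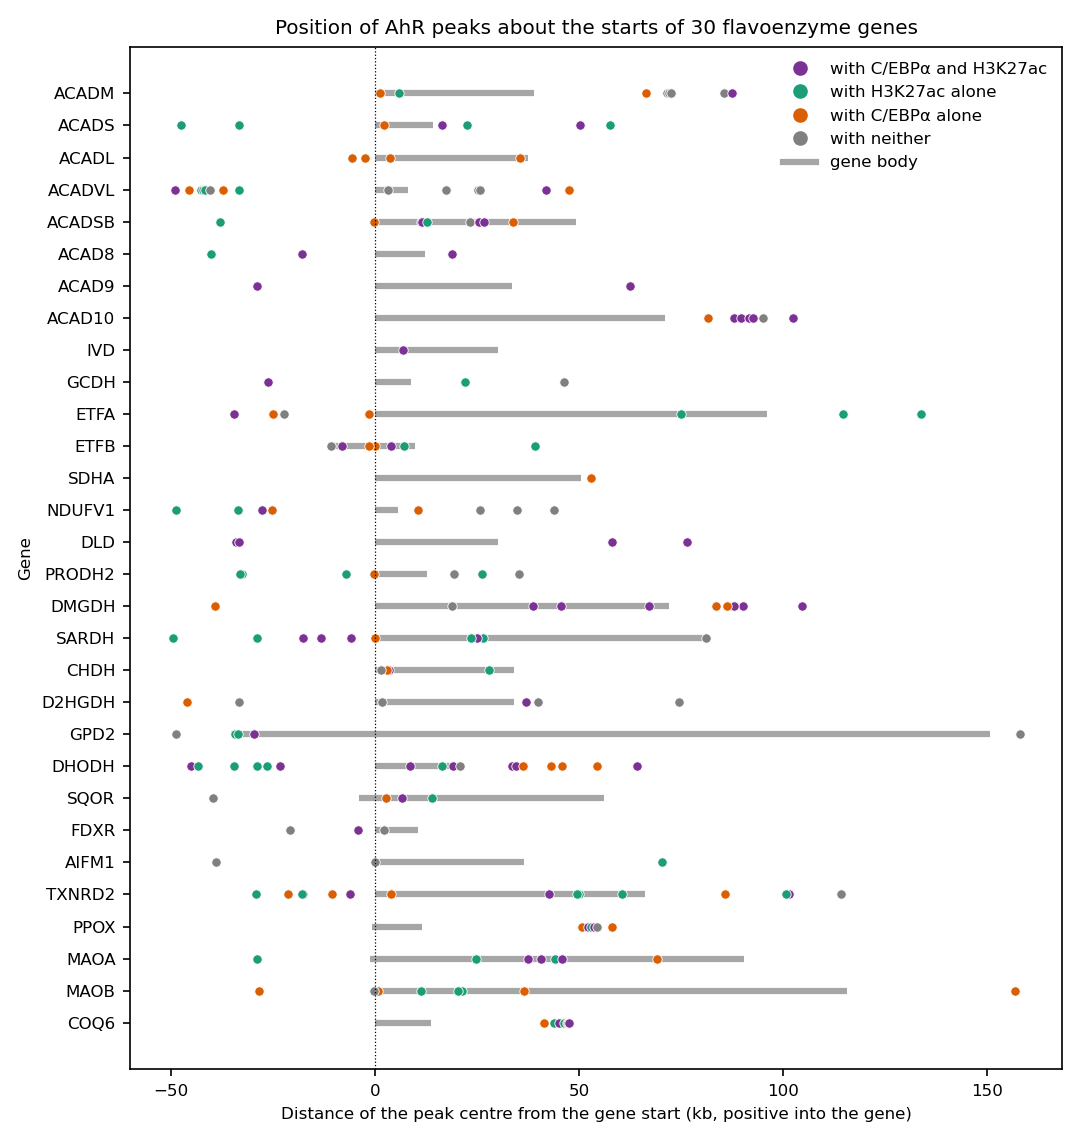
Position of AhR peak centres relative to the first listed gene start (horizontal axis, kb, positive into the gene) at the 30 flavoenzyme genes with a start (vertical axis), with grey bars for gene bodies and colours for overlap with C/EBPα and H3K27ac. Peaks at SARDH, ETFB, AIFM1, MAOB, PRODH2 and ACADSB lie at the start, and all 7 peaks at ACAD10 lie beyond the end of the gene, the nearest 81654 bp from its start.

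H3K27ac could not be read at gene starts in these lists. Counted over the genome and every listed start, the untreated list held 358 regions with centres 2 to 3 kb from the nearest start and 2914 at 3 to 4 kb, a ratio of 8.14. The inhibitor list gave a ratio of 8.04, the AhR list 0.952 and the C/EBPα list 0.862. No flavoenzyme gene had an H3K27ac region within 1 kb of its start, and only 1.18% of all genes with a start had one. The sources used here do not say how the lists came to be nearly empty there. Class calls of "C/EBPα alone" and "neither" at promoter peaks carry this limit.

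**Figure D4:**
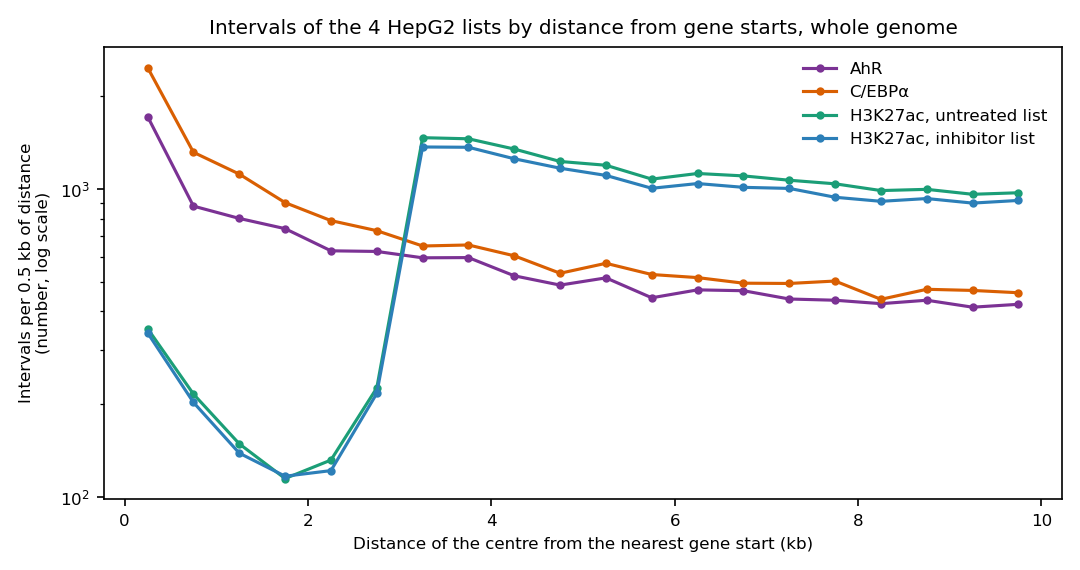
Number of intervals per 0.5 kb of distance (vertical axis, log scale) against the distance of the centre from the nearest listed gene start (horizontal axis, kb), for the 4 HepG2 lists over the whole genome. Both H3K27ac lines step up at 3 kb, from 226 to 1463 regions per bin in the untreated list, while the AhR and C/EBPα lines fall without a step.

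The 10 acyl-CoA dehydrogenase genes held 58 AhR peaks, of which 20 (34.5%) were three-way sites. Over all genes, 36.9% of the pairs of a gene and an AhR peak within 50 kb were three-way sites. At least 1 such site lay near 9 of the 10 genes, against 62.2% of all genes. ACADSB, which oxidises short branched acyl-CoA from isoleucine, had 9 AhR peaks, and 7 of them lay inside the gene. Its 4 three-way sites were all intragenic, and those nearest the start were chr10:123020105-123020344, chr10:123020446-123020671 and chr10:123034388-123034621. ACADSB also had 11 C/EBPα peaks and 11 regions in each H3K27ac list. ACADL, the long-chain enzyme, had 4 AhR peaks and 9 C/EBPα peaks. For all 4 AhR peaks ACADL was the nearest gene, all 4 overlapped C/EBPα, and none overlapped H3K27ac. Its 2 AhR peaks nearest the start were centred 2410 bp upstream and 3750 bp downstream of it. The peak 2410 bp upstream lay where the H3K27ac lists are nearly empty. Just 3 untreated H3K27ac regions lay near ACADL, the lowest number in this set together with ACAD8.

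ACADVL, the very-long-chain enzyme, had 14 AhR peaks, the most in this set, but was the nearest gene for 1 of them. That peak, chr17:7220285-7220544, lay inside ACADVL, within 1 kb of a further listed start. It overlapped neither C/EBPα nor H3K27ac, and the H3K27ac lists are nearly empty so close to starts. Another 7 were nearest to ASGR1, which encodes the hepatocyte asialoglycoprotein receptor. The 2 three-way sites, chr17:7258853-7259134 and chr17:7167905-7168170, were nearest to ELP5 and ASGR1. ACAD10, a further member of the family, had 7 AhR peaks and 5 three-way sites, and all 7 peaks were nearest to ALDH2, the mitochondrial aldehyde dehydrogenase. The high AhR counts at ACADVL and ACAD10 thus came almost wholly from peaks closer to, or inside, neighbouring genes.

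ACADM, the medium-chain enzyme, had 8 AhR peaks, of which 2 lay inside the gene and 5 were nearest to MSH4. ACADS, the short-chain enzyme, had 7, with 2 three-way sites, 1 of them 2002 bp past the gene body at chr12:120742010-120742278. ACAD9, an enzyme also needed for complex I assembly, had 2 AhR peaks, both three-way sites. IVD, which acts in leucine breakdown, had a single AhR peak, and this was a three-way site inside the gene at chr15:40412446-40412688. IVD had 8 C/EBPα peaks, so a low AhR count did not go with a low C/EBPα count there. ACAD8 of valine breakdown and GCDH of lysine and tryptophan breakdown had 3 AhR peaks each, and neither was the nearest gene for any of them.

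The electron transfer flavoprotein is a dimer of the ETFA and ETFB products, and ETFDH passes its electrons to ubiquinone. The 3 genes held 17 AhR peaks, with 3 three-way sites (17.6%, against 36.9% of pairs over all genes), the lowest share of the 7 role sets. The ETFB peaks centred 106 and 1494 bp from the first listed start lay where the H3K27ac lists are nearly empty. So did the ETFA peak centred 1566 bp from its start. Whether this lowered the share was not tested. ETFA and ETFB each had 7 AhR and 4 C/EBPα peaks, but their peaks lay differently. At ETFB 6 of the 7 AhR peaks were inside the gene body, and at ETFA 1 of 7 was. The 2 three-way sites of ETFB were chr19:51350719-51350998 and chr19:51362780-51363033, on either side of the first listed start. An AhR peak at chr19:51365544-51365765 lay 623 bp inside the upstream end of the ETFB body. ETFDH had 3 AhR peaks and no three-way site, and the peak at chr4:158672535-158672874 lay inside the gene, 239 bp from an end, with neither C/EBPα nor H3K27ac. Nearby untreated H3K27ac regions numbered 14 at ETFA, 12 at ETFB and 3 at ETFDH.

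SDHA, NDUFV1 and DLD encode the flavin subunits of complex II, complex I and the 2-oxoacid dehydrogenase complexes. SDHA was lowest or joint lowest of the 34 genes in each list, with 1 AhR peak, 1 C/EBPα peak and 2 untreated and 1 inhibitor-list H3K27ac regions. The SDHA peak, chr5:271281-271498, lay 2535 bp outside the gene and was nearest to PDCD6. NDUFV1 had 8 AhR peaks, of which 4 were nearest to GSTP1, a glutathione transferase, and 1 to NDUFV1 itself. DLD had 4 AhR peaks, all three-way sites. Of these, chr7:107857640-107857877 and chr7:107856897-107857114 had DLD as their nearest gene, 33230 and 33993 bp away, and the other 2 were nearest to LAMB1. No AhR peak lay inside SDHA, NDUFV1 or DLD.

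The 5 genes of proline, choline and one-carbon oxidation held 34 AhR peaks and 12 three-way sites (35.3%, against 36.9% of pairs over all genes). The nearest gene was a member of the set for 17 of the 34 peaks. DMGDH and SARDH act in sequence on dimethylglycine and sarcosine. Each had 10 AhR peaks. DMGDH had 14 C/EBPα peaks, the second highest number of the 34 genes, and 6 three-way sites. Of these, chr5:79030739-79030990, chr5:79024010-79024288 and chr5:79002386-79002622 lay inside DMGDH, and the other 3 were nearest to ARSB, a lysosomal sulfatase. SARDH had 23 untreated H3K27ac regions, the most of the 34 genes, and 4 three-way sites. Those nearest its start were chr9:133745684-133745923, 5848 bp upstream, and chr9:133753084-133753341, 13258 bp upstream and nearest to VAV2. A further SARDH peak, chr9:133658571-133658841, lay 577 bp past the far end of the gene, in DBH.

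CHDH oxidises choline on the way to betaine. All 4 AhR peaks at CHDH lay inside the gene, and 3 of them were centred within 3358 bp of its start. The CHDH three-way site was chr3:53842942-53843181. PRODH, the proline enzyme, had 3 AhR peaks, 1 of each class other than "neither", and was the nearest gene for all 3. PRODH2, the hydroxyproline enzyme, had 7 AhR peaks and was the nearest gene for the promoter peak alone. No PRODH2 peak was a three-way site, as 4 overlapped H3K27ac without C/EBPα, 1 overlapped C/EBPα without H3K27ac and 2 overlapped neither.

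DHODH, the pyrimidine synthesis enzyme that reduces ubiquinone, had 17 AhR and 18 C/EBPα peaks, the highest numbers of the 34 genes in both lists. It also had the most three-way sites, 7. DHODH was the nearest gene for 4 of its 17 AhR peaks, while 6 were nearest to PKD1L3, 5 to HP and 2 to HPR. HP encodes haptoglobin, an abundant plasma protein made by hepatocytes. The three-way sites closest to the DHODH start were chr16:72017206-72017451, inside the gene, chr16:72027675-72028003, 16 bp past its end, and chr16:71985320-71985524, upstream and nearest to PKD1L3.

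GPD2, the mitochondrial glycerol-3-phosphate dehydrogenase, had 5 AhR peaks and was the nearest gene for all of them. The GPD2 three-way site, chr2:156405777-156405993, lay inside the gene body and 29667 bp upstream of the first listed start. Another AhR peak, chr2:156401112-156401326, lay 831 bp inside the upstream end of the body. SQOR, which oxidises hydrogen sulfide, had 4 AhR peaks, 3 of them inside the gene, with a three-way site at chr15:45641424-45641686. D2HGDH, which oxidises D-2-hydroxyglutarate, had 6 AhR peaks, of which 4 overlapped neither C/EBPα nor H3K27ac. Among these 4, the peak centred 1657 bp from the D2HGDH start lay where the H3K27ac lists are nearly empty. D2HGDH had 19 untreated H3K27ac regions nearby.

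MAOA and MAOB, the monoamine oxidases, lie next to each other on chromosome X and shared 1 AhR peak, chrX:43725311-43725561, the only AhR peak counted at more than 1 of the 34 genes. Together they held 14 distinct AhR peaks, and 1 of the pair was the nearest gene for all 14. The pair differed in what their AhR peaks overlapped. MAOA had 7 peaks, of which 3 were three-way sites, 3 overlapped H3K27ac alone and 1 C/EBPα alone. MAOB had 8, of which 4 overlapped C/EBPα alone, 3 H3K27ac alone and 1 neither. The shared peak overlapped C/EBPα alone and is counted for both genes. The MAOB peaks centred 138 and 615 bp from its start lay where the H3K27ac lists are nearly empty. Whether this touched the difference between the pair was not tested. All 7 MAOA entries were merged from 2 peaks, and the nearest to the start was centred 24872 bp into the gene. MAOB instead had a peak at its start and another at chrX:43881691-43881979, 471 bp inside that end of the gene, which overlapped C/EBPα. Untreated H3K27ac regions numbered 12 at MAOA and 5 at MAOB.

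The 7 genes of redox, assembly and biosynthesis held 41 AhR peaks, with 9 three-way sites (22%, against 36.9% of pairs over all genes). TXNRD2, the mitochondrial thioredoxin reductase, accounted for 15 of the 41 AhR peaks and also had 12 C/EBPα peaks, the third highest number. TXNRD2 had 5 AhR peaks inside the gene. Of its 3 three-way sites, chr22:19899068-19899302 lay inside the gene and chr22:19840112-19840317 was nearest to GNB1L. COQ6, which acts in coenzyme Q synthesis, had 7 AhR peaks, and all 7 were nearest to ENTPD5. PPOX, the heme synthesis enzyme, had 6, of which 4 were nearest to FCER1G and 2 to APOA2, which encodes an apolipoprotein of HDL. MTO1, which modifies mitochondrial tRNA, had 5, all nearest to EEF1A1.

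FDXR, the ferredoxin reductase of steroid and iron-sulfur metabolism, had 3 AhR peaks and 1 three-way site, chr17:74877114-74877365, which was nearest to FADS6. AIFM1, the apoptosis-inducing factor of the intermembrane space, had 3 AhR peaks, and the one at its start, chrX:130165621-130165842, also lay within RAB33A. FOXRED1, a complex I assembly factor, had 2 AhR peaks. The FOXRED1 peaks, chr11:126277382-126277601 and chr11:126277947-126278211, lay inside and across an end of the gene and overlapped H3K27ac alone.

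Across the 34 genes, 27 were the nearest protein-coding gene for at least 1 of their AhR peaks, against 61.1% of all genes. The 7 that were not were ACAD8, ACAD10, GCDH, SDHA, PPOX, COQ6 and MTO1. Counted as pairs of a gene and a peak within 50 kb, the flavoenzyme gene was the nearest in 85 of 210 pairs (40.5%), and over all genes the share was 50.6%. Merged entries made up 57.6% of the AhR peaks nearest to a flavoenzyme gene (49 of 85), and 42.1% of the same pairs over all genes. Where another gene was nearest, the shares were 35.2% and 38.3%. Peaks close to one another are not independent, and these shares are descriptions.

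**Figure D5:**
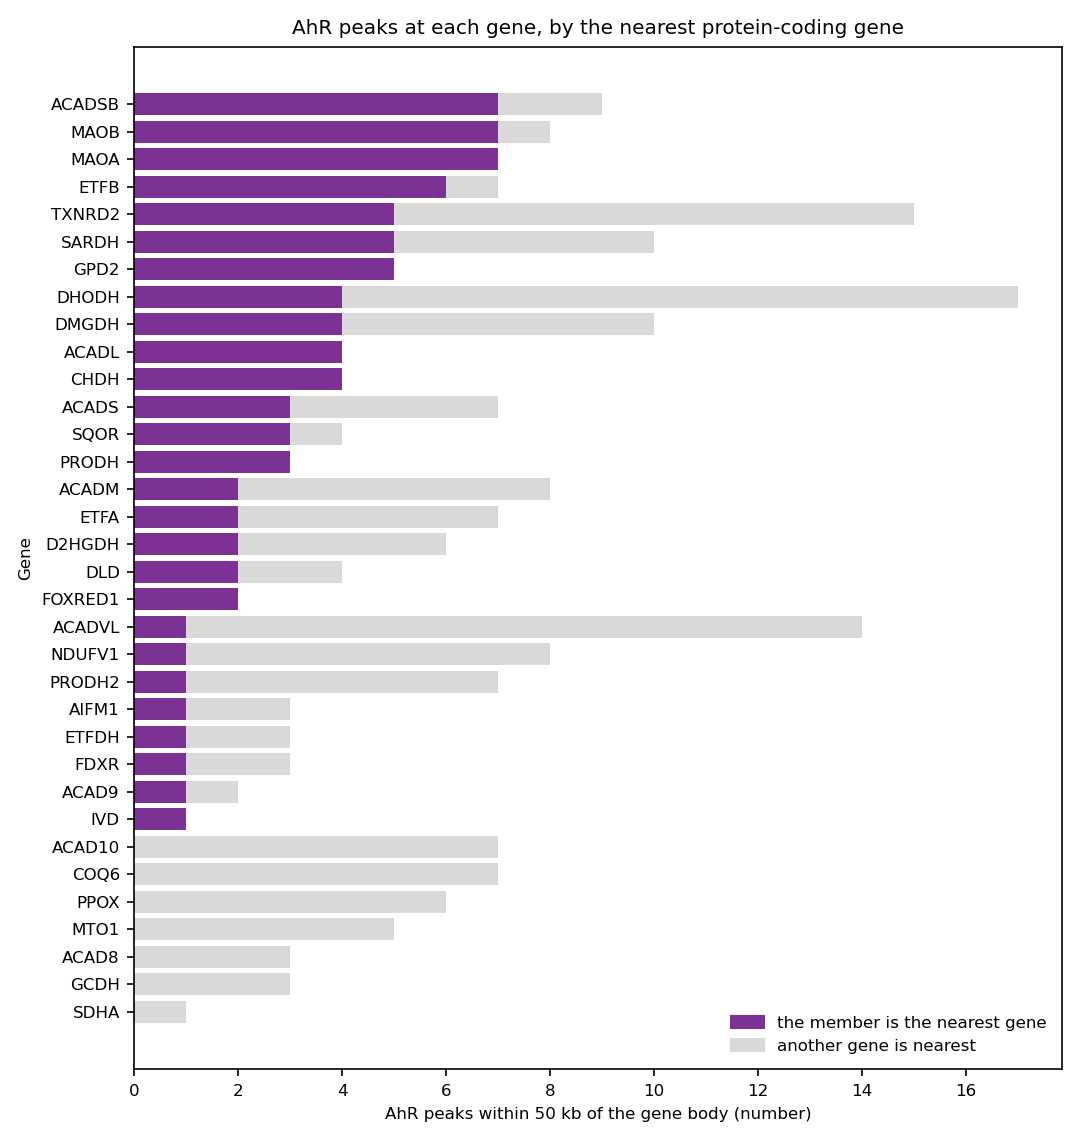
Number of AhR peaks within 50 kb of each flavoenzyme gene (horizontal axis), split by whether that gene (purple) or another protein-coding gene (grey) was nearest, with genes on the vertical axis sorted by the first number. ACADSB, MAOB and MAOA were nearest for 7 peaks each, and for 7 genes at the bottom every peak was nearest to another gene.

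Of the 209 AhR peaks at flavoenzyme genes, 107 (51.2%, 95% Wilson interval 44.5 to 57.9%) overlapped a C/EBPα peak, against 55.3% of the whole AhR list. An untreated H3K27ac region was overlapped by 122 (58.4%, 51.6 to 64.8%), against 70.7% of the list, and both by 62 (29.7%, 23.9 to 36.2%), against 41.1%. The intervals cover counting error only. The whole list also holds peaks far from any gene. Counted as pairs of a gene and a peak within 50 kb, the overlap with H3K27ac was 58.1% at flavoenzyme genes and 64.6% over all genes, with both 29.5% and 36.9%, and with C/EBPα 51.4% and 53.8%. Of these pairs, 23.3% at flavoenzyme genes and 17.8% over all genes had the peak within 3 kb of a listed gene start, where the H3K27ac lists are nearly empty. Beyond 3 kb from every listed start, 121 of 160 peaks (75.6%, 68.4 to 81.6%) overlapped H3K27ac, against 77.8% of the list. As pairs, the shares beyond 3 kb were 75.2% and 77.5%. Within 3 kb the count was 1 of 49 peaks, against 5.71% of the list. Peaks overlapping C/EBPα alone made up 21.5% at flavoenzyme genes and 14.2% of the list. This class takes in peaks near starts, where the H3K27ac lists are nearly empty. At flavoenzyme genes 49 peaks lay within 3 kb of a listed start and 160 beyond, and in the list 5391 and 48793. Whether this raised the share was not tested.

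For 123 AhR peaks at flavoenzyme genes, a C/EBPα peak was found within a search distance of 1000 bp. The paired centres were a median of 26.5 bp apart, and 24.5 bp over the whole list. The search distance limits both medians. C/EBPα peaks at these genes overlapped AhR in 24 of 91 entries with a merge number of 1 (26.4%), 19 of 31 with 2 (61.3%) and 64 of 88 with 3 (72.7%). Over the whole C/EBPα list the shares were 27.7%, 43.6% and 76.7%. The C/EBPα entries merged from more peaks thus overlapped AhR more often, both at the flavoenzyme genes and over the list.

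The untreated and inhibitor H3K27ac lists were compared at the same genes. Of 354 untreated regions, 315 (89%, 85.3 to 91.8%) had identical coordinates in the inhibitor list, against 87.4% of the whole list. The other 39 overlapped no inhibitor-list region, so regions were either identical or absent. At least 1 such region lay near 22 of the 34 genes, against 54.6% of all genes. Of the 39, 6 (15.4%, 7.25 to 29.7%) overlapped an AhR peak, and 121 of the 315 regions in both lists did (38.4%, 33.2 to 43.9%). The whole lists gave 23.2% and 39.9%. Since no list separates vehicle from inhibitor libraries, an effect of the inhibitor cannot be read from the presence of a region in 1 list.

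NDUFV1 had the most regions of the untreated list alone, 4. The nearest to its start, chr11:67576770-67577015, and chr11:67573153-67573389, which overlapped an AhR peak, were nearest to GSTP1, and chr11:67644117-67644328 was nearest to ACY3. ETFA and DLD had 3 each. At DLD they were chr7:107880373-107880599, chr7:107879398-107879710 and chr7:107874641-107874970, between 10621 and 16302 bp upstream of the start, with DLD as the nearest gene. At ETFA they were chr15:76190781-76191078, chr15:76190379-76190636 and chr15:76185697-76186007, all nearest to TMEM266. The inhibitor list alone held 8 regions at the 34 genes, with 3 at FDXR, 2 at ACAD8 and 1 each at ACADL, GCDH and PRODH. The ACADL region, chr2:210195096-210195369, lay inside the gene.

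For comparison, the same counts were made for 20 genes from the same pathways whose products carry no flavin. The list held CPT1A, CPT2, the trifunctional protein subunits, partner subunits of complex I, complex II and the oxoacid dehydrogenases, and the mitochondrial folate and FAD transporter SLC25A32. AhR peaks lay near 18 of the 20 (85.4% of all genes), C/EBPα peaks near 19 (88.6%), untreated H3K27ac regions near 19 (90.4%), inhibitor-list regions near 17 (88.1%) and three-way sites near 12 (62.2%). Each of the 4 lists was present at 34 of 34 flavoenzyme genes, and three-way sites at 27 of 34, and the difference between the gene sets was not tested. The median was 6 AhR peaks per gene, as at the flavoenzyme genes. Those with the most AhR peaks were NDUFV2 with 9, and HADHB and ECHS1 with 8 each. SDHD and PDHA1 had none.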

How the data were processed

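The authors deposited peak lists of 5 columns (name, chromosome, start, end, sign), and the 4 HepG2 lists were used. The deposited values are positions, with no count, score or depth for a library, so the depth is unknown and no test between conditions was made. Per the submitters' processing notes, Bowtie2 and HOMER (no versions) and the build hg38 were used. The sources used here do not give the settings for peak calling, merging and filters. The final number in each peak name was read as the number of peaks merged into it. Per the labels' protocols, cells for AhR and C/EBPα were crosslinked with DSG and then formaldehyde, and those for H3K27ac with formaldehyde only, which can affect which contacts are captured.

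Gene bodies came from RefSeq GRCh38.p14 and gene starts from its promoter table, which lists several starts for some genes and none on chromosome 8. The first listed start was used for each gene's own distances, and every listed start for the distance of a peak from the nearest start. Peaks were assigned to every gene within 50 kb, and overlap meant 1 bp or more. The nearest gene was that with the closest body. Intervals are 95% Wilson intervals. They treat peaks as independent, which neighbouring peaks are not.

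The members, roles, gene lists and alternatives were chosen with earlier results of these data known. Each member is named with its AhR count. Coordinates are given for the 3 members with most AhR or C/EBPα peaks, for members with an AhR peak within 1 kb of a gene start or end, and for those with most H3K27ac regions in 1 list. Other coordinates were chosen after the values were seen. The mouse lists were not analysed here, and some AhR peaks in the TXNRD2 window are not reported here by position. The interval routines were tested on simulated data. Python 3.11.15, NumPy 2.4.6, SciPy 1.17.1 and Matplotlib 3.10.9 were used.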

Additional observations from a re-analysis of the deposited data

How the results depend on the processing

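Over 11 results, 58 alternatives were computed: windows of 10 and 100 kb, the gene body alone, nearest gene only, merged entries only, stricter or centre-based overlap, the inhibitor list in place of the untreated one, peaks beyond 3 kb of gene starts, and every listed start. Of these, 49 stayed within 1.5 times the reported count or inside the reported interval, and 9 did not. For the lists present at all 34 genes, the 100 kb window contains the reported window. Those counts could not change, and that alternative was no test of them. The last pair, peaks beyond 3 kb and every listed start, were chosen after seeing the data. With the gene body alone, 20 genes had an untreated H3K27ac region and 21 an inhibitor-list region, in place of 34. AhR peaks were then present at 23 genes and C/EBPα peaks at 24, falls that lie within 1.5 times of 34. With nearest gene only, AhR peaks were present at 27 genes and C/EBPα peaks at 28. Untreated H3K27ac regions were present at 23 and inhibitor-list regions at 24, and these falls also lie within 1.5 times. Three-way sites, reported at 27 genes, were present at 15 within 10 kb, at 11 in the gene body alone, and at 16 with nearest gene only. Beyond 3 kb of gene starts the share of AhR peaks overlapping H3K27ac was 75.6%, in place of 58.4%, and overlapping both 38.1%, in place of 29.7%. The share of untreated H3K27ac regions identical in the inhibitor list was 93.6% within 10 kb and 94.7% in the gene body alone, in place of 89%. Of the inhibitor-list regions at these genes, 97.5% were identical in the untreated list. Exchanging the lists thus used nearly the same regions and could change little. Smaller windows hold fewer peaks by construction. For the shares the cause was not tested. No paired analysis was possible because the lists hold no value for a library. Peak numbers per gene depend on an unknown depth and caller threshold, so an absent peak says only that none was listed.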
